A study of Mus musculus with 6 samples.

Results

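The arrays described are those of the vehicle islets of a study of CMPF, a circulating metabolite of furan fatty acids, and they give the baseline expression of isolated mouse islets across genes. The samples were the 3 arrays labelled as control islets of 6 arrays in all. Islets came from male CD1 mice aged 8 weeks, rested overnight in RPMI medium and were then kept for 24 h in the vehicle, 0.1% ethanol. The other 3 arrays, of islets given 200 uM CMPF for 24 h, entered only the choice of the probe set that stands for each gene and are not compared here. Levels are given for 18193 genes, each represented by that of its own probe sets, among those assigned to 1 gene, whose signal averaged highest over the 6 arrays. Values are log2 signals, in which 1 unit is a 2-fold difference, and every mean is over the 3 vehicle arrays with its SD (n = 3). The labels do not say that the samples numbered 1 to 3 came from separate animals or preparations, so the spread between them may be technical.

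Pancreatic islets are clusters of hormone-secreting cells scattered through the exocrine pancreas. Beta cells make insulin, alpha cells glucagon, delta cells somatostatin and PP cells pancreatic polypeptide, and all of them package peptide hormones into dense granules that are released when the cell is stimulated. The islets are isolated from a gland made mostly of acinar cells, which secrete digestive enzymes into ducts, and they carry blood vessels, stellate cells and macrophages of their own.

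The level of a gene ranged from 2.17 to 14.69, with a median of 6.41 and quartiles of 4.51 and 8.20. The array values carry no detection call, so the 39 measured olfactory receptor genes, which serve the sense of smell, were used as a mark of signal without clear expression. Their median level was 3.67, the highest of them was Olfr558 (5.60 ± 0.12), and their 95th percentile was 5.13. Above that reference lay 12110 genes (66.6%), of which 11718 lay above it on each of the 3 arrays. Of 5 sex-linked genes, the Y-linked Eif2s3y (8.55 ± 0.27), Kdm5d (6.71 ± 0.22) and Uty (6.65 ± 0.11) read above the reference. Xist (4.14 ± 0.29), which is transcribed in female cells, and Tsix (3.08 ± 0.18) read below it. Array medians were 6.40, 6.43 and 6.40.

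An order of signal is not an order of RNA amount, because probe sets differ in how well they bind. Of 9010 genes with more than 1 single-gene probe set, the gap between their highest and lowest probe set had a median of 2.15 log2 units and was at least 1 for 6756 of them. Genes that every cell needs show the same limit from below. The ribosomal protein gene Rps16 (2.83 ± 0.13) and the cytochrome oxidase gene Cox7c (3.09 ± 0.21) read at the level of olfactory receptors, while most members of their families stood near the top of the scale. A low reading therefore does not show that a gene is silent, and ranks below describe probe signal.

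**Figure D1:**
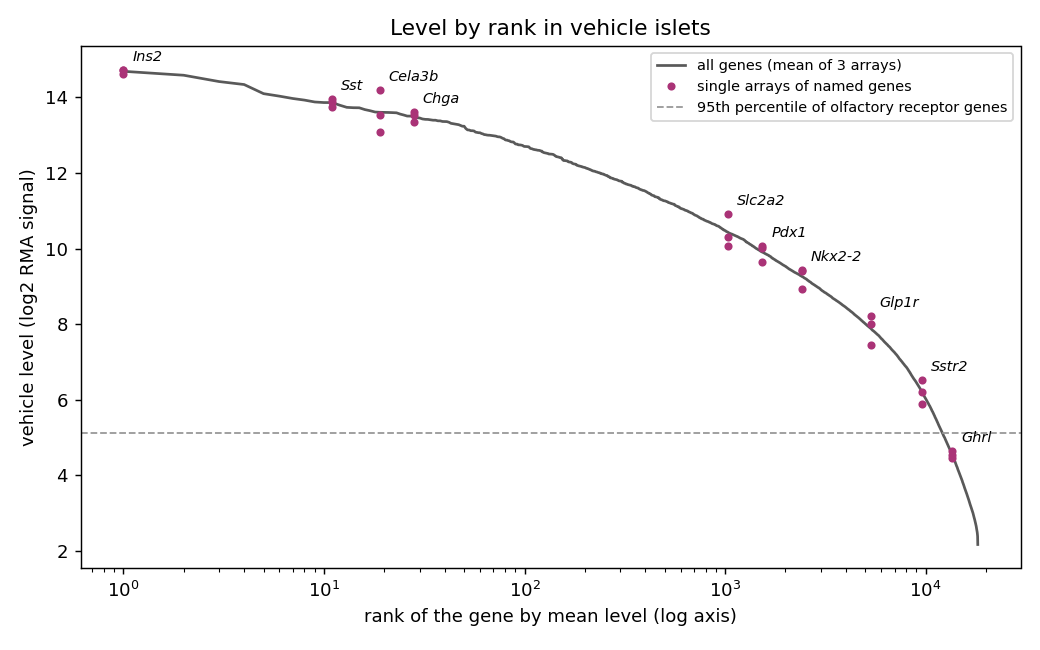
Level of each gene (log2 RMA signal, mean of 3 vehicle arrays, grey line) against its rank (log axis), with the 3 single-array values of 10 genes as points and the 95th percentile of olfactory receptor genes as a dashed line. Ins2 stands first at 14.69, beta cell genes such as Pdx1 and Slc2a2 stand within the upper quartile, and Ghrl, at 4.55, lies below the dashed line.

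The 4 genes of highest signal were hormones. Ins2, one of the mouse insulin genes, read 14.73, 14.61 and 14.73 on vehicle arrays 1, 2 and 3 (mean 14.69 ± 0.071), and its single probe set is of a class that can also bind related sequences. Iapp, which encodes the amyloid peptide released with insulin, read 14.63, 14.52 and 14.60. Gcg, the glucagon precursor, read 14.42, 14.44 and 14.40, a range of 0.04 log2 units. All 3 genes sat close together on every array, and the lowest Iapp value lay above the highest Gcg value. Ppy, pancreatic polypeptide, read 14.33, 14.22 and 14.47. Sst, somatostatin, read 13.96, 13.75 and 13.87, and Pyy, peptide YY, read 13.85, 13.68 and 14.06, so that the arrays of these last 2 genes overlapped. The 5 hormones that mark the islet cell types, Ins2, Iapp, Gcg, Ppy and Sst, lay among the 11 highest genes, so the defining markers of the labelled tissue were present. The probe sets of different hormones are not comparable in amount, so no ratio among the hormones is given. The dimmest probe set of Iapp spread more widely than its brightest, at 11.43, 11.16 and 11.48. A narrow range at the top of the scale therefore does not show steady RNA.

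The other hormone genes measured stood far lower. Npy, neuropeptide Y, read 8.03, 8.40 and 8.21, with array 2 highest. Adm, adrenomedullin, a vasodilator peptide that is also induced by low oxygen, read 6.06, 6.32 and 7.72, and array 3 stood above the other arrays. Gast, gastrin, read 4.90 ± 0.19, Cck, cholecystokinin, 4.56 ± 0.38, and Ghrl, ghrelin, which marks the epsilon cells, 4.55 ± 0.10. These last 3 means lie below the olfactory receptor reference, where a gene that is expressed in few cells cannot be told from one without transcript. The median of the 11 hormone genes was 13.86. Without the probe set classes that can bind related sequences, which removes Ins2, it was 11.04 over 10 genes, below the median of 13.28 that granins and granule cargo then had. That hormone median is the midpoint between Sst and Npy, and no hormone gene read near it. Of the 11 hormone genes, 9 had a range over the arrays of at most 0.4. The median range of the 11 was 0.26, against 0.22 for all genes. Ins1, the other insulin gene, was not analysed here.

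Promoter sequences of 3 of these hormone genes and of an acinar enzyme are shown as examples that carry a motif, since the hormones hold the top of the scale and the enzyme belongs to the group that varied most between arrays. Each is the 150 bases before the transcription start from RefSeq (GRCm38.p6), written 5′ to 3′ on the gene's own strand. Capitals mark TATAAA, the core of a TATA box that positions the polymerase, and TGACGTCA, the cAMP response element, with either strand marked. The Gcg sequence is at chr2:62483654-62483803 (minus strand), Ppy at chr11:102101320-102101469 (minus strand), Sst at chr16:23890845-23890994 (minus strand) and Cela1 at chr15:100687921-100688070 (minus strand).
Gcg: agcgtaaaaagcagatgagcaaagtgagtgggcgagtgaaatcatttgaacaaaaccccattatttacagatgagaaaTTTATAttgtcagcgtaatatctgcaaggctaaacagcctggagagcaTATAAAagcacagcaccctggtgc
Ppy: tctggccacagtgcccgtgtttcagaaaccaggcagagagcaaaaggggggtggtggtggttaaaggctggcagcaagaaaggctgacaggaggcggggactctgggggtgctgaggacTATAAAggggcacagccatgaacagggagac
Sst: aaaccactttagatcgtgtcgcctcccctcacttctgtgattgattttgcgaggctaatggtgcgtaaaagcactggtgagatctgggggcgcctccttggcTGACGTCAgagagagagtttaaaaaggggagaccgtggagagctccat
Cela1: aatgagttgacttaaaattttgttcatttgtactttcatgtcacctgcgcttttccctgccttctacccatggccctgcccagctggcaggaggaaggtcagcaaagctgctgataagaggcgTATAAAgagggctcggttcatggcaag

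TATAAA began at position -24 in Gcg, -31 in Ppy and -27 in Cela1, counted from the start. Gcg also held the same letters on the opposite strand further upstream. The palindrome TGACGTCA began at position -48 in Sst. Searched on both strands in windows of the same length, TATAAA occurred in 7.57% of 32851 promoters in the table and TGACGTCA in 1.36%. Of measured genes with a promoter in the table, 6.56% held TATAAA and 2.28% TGACGTCA. Among the hormone genes with a promoter, 3 of 10 held TATAAA and 1 held TGACGTCA. Among the acinar genes, 5 of 22, or 22.7%, held TATAAA and 0 held TGACGTCA. Some lists of lower signal held TATAAA as often, as in 8 of 22 chemokine genes and 4 of 9 striated muscle genes. Granins and beta cell markers, also bright, held it in 0 of 11 genes each. The windows of Iapp, Pyy, Reg3a and the acinar genes Cela2a, Cela3b, Cpb1 and Ctrb1 held neither motif. A match is a description of letters in the window and was not tied to any value of the arrays.

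Proteins of the secretory granule also read near the top of the scale. The 12 genes of granins and granule cargo had a median of 12.47, higher than 99.2% of all genes, and 11 of them lay above the upper quartile. Chgb, chromogranin B, read 14.14, 13.98 and 14.17. Scg5, the 7B2 chaperone of prohormone convertase 2, read 13.73 ± 0.060, Scg2, secretogranin II, 13.60 ± 0.11 and Chga, chromogranin A, 13.50 ± 0.13. Array 2 was lowest for 10 of the 12, against 7280 of all 18193 genes, and stood by a median of 0.12 below the gene's mean. The lowest member was Cadps2, a priming factor for granules, at 6.68 ± 0.33.

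Enzymes that cut and trim prohormones spread more widely. Cpe, carboxypeptidase E, which removes basic residues from the cut peptides, read 13.72, 13.69 and 13.80 and ranked among the 20 highest genes. Pam, which amidates peptides such as amylin, read 12.29 ± 0.25, and Pcsk1, prohormone convertase 1/3, 10.97 ± 0.18. Pcsk5, a convertase of other tissues, read 4.17 ± 0.11, below the reference. Of 9 measured members 5 lay above the upper quartile, and Pcsk2 was not analysed here. The 18 genes of exocytosis had a median of 10.13, and 14 lay above the upper quartile. Syt13, Syt4 and Syt7, synaptotagmins, of which Syt7 is a calcium sensor of granule fusion, read 11.81 ± 0.049, 11.64 ± 0.093 and 11.00 ± 0.23. Rab3a, a small GTPase on granules, read 11.01 ± 0.16, and Doc2b, another calcium sensor, was the lowest at 5.27 ± 0.17.

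Beta cell markers had a median of 10.76, above 95.7% of genes, and all 13 measured members lay above the olfactory receptor reference. After Ins2 and Iapp came Ero1b, an oxidase that forms disulfide bonds in proinsulin, at 13.03 ± 0.14, and Cltrn, collectrin, at 12.95 ± 0.088. G6pc2, the islet glucose-6-phosphatase, read 12.87 ± 0.062. Slc2a2, the glucose transporter GLUT2, read 10.90, 10.30 and 10.07, and Pdx1, a transcription factor of beta cells, 10.06, 9.64 and 10.02. Array 1 was the highest for 11 of the 13 markers, against 5780 of all 18193 genes. The median deviation of the markers was 0.15 on array 1, -0.13 on array 2 and 0.01 on array 3. The widest spread of the list was that of Ucn3, urocortin 3, a mark of mature beta cells, which read 10.05, 9.16 and 9.05. In a whole islet, fewer cells of a type and less RNA per cell cannot be told apart.

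Genes that couple glucose to secretion lay lower than the granule genes. The 19 ion channel and pump genes had a median of 7.49, and 5 were above the upper quartile. Atp2a2, a calcium pump of the endoplasmic reticulum, read 12.53 ± 0.15, and Atp2a3, its relative, 10.33 ± 0.18. Abcc8, the sulfonylurea receptor subunit of the KATP channel, read 10.98, 10.85 and 11.08, and Kcnj11, its pore subunit, 7.71, 7.58 and 7.70. The 2 subunits did not overlap. Their gap exceeded the median gap of 2.15 between probe sets of 1 gene and lay under its 90th percentile of 5.49. Ryr2, a calcium release channel, was lowest at 3.37 ± 0.14. Among 18 receptors for hormones and nutrients the median was 6.19. Igf1r, the IGF1 receptor, was highest at 11.54 ± 0.36, followed by Sstr3, a somatostatin receptor, at 8.62 ± 0.14, and Galr1, a galanin receptor, at 8.38 ± 0.14. Glp1r, the receptor for the incretin GLP-1, read 8.22, 7.45 and 8.00, with array 2 lowest.

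Endocrine transcription factors had a median of 7.91 over 21 measured genes, and 19 exceeded the reference. Neurod1, which drives insulin transcription, read 12.23, 11.90 and 12.25. Insm1 read 11.52 ± 0.14, Isl1 11.28 ± 0.062 and Pax6 11.19 ± 0.22, all of them regulators shared by the endocrine cell types. The lowest was Foxa1, a forkhead factor of endoderm, at 4.83 ± 0.48. None of the 21 genes had a range of 1 unit or more, which 1.80% of all genes had. Their median range was 0.40, against 0.22 for all genes.

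Markers of the other endocrine types were led by their hormones. For alpha cells, Gcg was followed by Ttr, transthyretin, at 13.61 ± 0.10, then by Slc38a5, a glutamine transporter, at 7.35 ± 0.54. The homeobox gene Irx1 read 6.74 ± 0.29 and Pou3f4 5.47 ± 0.29. For delta cells, Sst was followed by Rbp4, retinol binding protein, at 11.30 ± 0.074, and Hhex, a delta cell transcription factor, at 8.04 ± 0.35. Their lowest member, Spock3, read 3.43 ± 0.11, below the reference. For PP cells, Ppy was followed by Pyy, then by Meis2 at 9.90 ± 0.14 and by Aqp3, an aquaporin, at 5.82 ± 0.22. Ppy and Gcg read within 0.4 units of Ins2, a nearness that gives no cell numbers, since probe sets of different genes are not comparable in amount.

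Of the 20 highest genes, 6 were hormones, 2 were granins, 3 were ribosomal proteins and 2 were acinar enzymes. Rpl41 was the highest of the ribosomal proteins at 13.97 ± 0.051. The rest included Tpt1 (14.03 ± 0.038), the translation gene Eef1a1 (13.93 ± 0.064), the chaperone Clu (13.79 ± 0.40) and the protease Ctsl (13.65 ± 0.029). Order within this group was loose. Of 19 neighbour pairs, 17 overlapped in their array values and 7 stood in the same order on each array. The exceptions to overlap were Iapp over Gcg and Ppy over Chgb. Among the 100 highest genes, 26 were cytosolic ribosomal proteins, 6 hormones, 6 granule proteins, 6 respiratory chain genes and 6 endoplasmic reticulum genes. A further 26 belonged to none of the lists, as did 17439 of all 18193 genes.

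**Figure D2:**
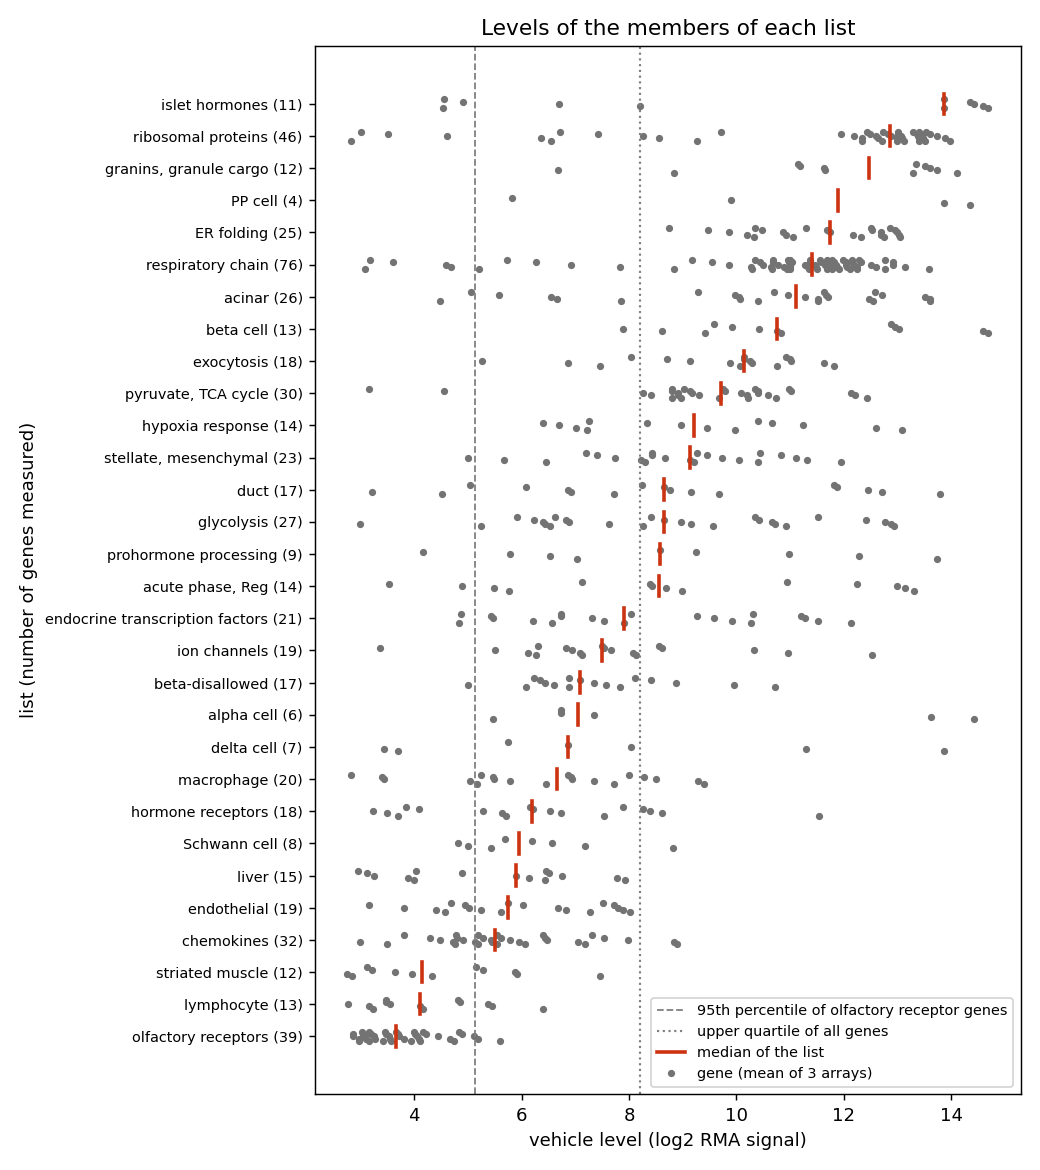
Vehicle level (log2 RMA signal, mean of 3 arrays) of each member of 30 gene lists, 1 row per list with the number of genes measured; red ticks are list medians, the dashed line is the olfactory receptor reference and the dotted line the upper quartile of all genes. Hormones (median 13.86), ribosomal proteins (12.85) and granins (12.47) lie at the top. That order changes without the probe set classes that can bind related sequences (hormones 11.04, midway between Sst and Npy, and granins 13.28). The medians of striated muscle (4.15) and lymphocyte genes (4.10) lie below the dashed line.

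Genes of protein synthesis and folding were also bright. The 46 cytosolic ribosomal protein genes had a median of 12.85, higher than 99.5% of genes, and their arrays differed by a median range of 0.09. All 25 genes of folding in the endoplasmic reticulum and its stress response lay above the upper quartile, with a median of 11.75. Hspa5, the chaperone BiP, read 13.09, 12.95 and 13.10. Calr, calreticulin, read 12.99 ± 0.21, P4hb, a protein disulfide isomerase, 12.96 ± 0.14, and the lowest, the stress sensor Atf6, 8.75 ± 0.062. Array 2 was the lowest for 20 of these 25 genes, against 7280 of all 18193 genes. The 10 ATF4 and CHOP pathway genes, which respond to amino acid shortage and stress, had a median of 9.95. Asns, asparagine synthetase, read 12.01 ± 0.091, and Atf4, the factor that induces it, 11.97 ± 0.18. Ddit3, which encodes CHOP, read 9.18, 8.96 and 10.16 and was highest on array 3.

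Defences against oxidants and metals were also high. The 19 measured genes had a median of 10.80, and each exceeded the reference. Mt1 and Mt2, metallothioneins that bind zinc and copper, read 13.36 ± 0.26 and 12.49 ± 0.26. Sod1, superoxide dismutase, read 12.03 ± 0.024 with a range of 0.04, and Txn1, thioredoxin, 12.14 ± 0.10. Catalase, Cat, is known for its low level in beta cells and read 7.81, 8.69 and 7.86. The lowest was Nqo1, a quinone reductase, at 6.47 ± 0.31.

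Mitochondrial genes were bright and even between arrays. The 76 respiratory chain and ATP synthase genes had a median of 11.41, 66 lay above the upper quartile, and their median range was 0.10 against 0.22 for all genes. Cox6a1, a cytochrome oxidase subunit, read 13.59 ± 0.088 and Ndufa1, a complex I subunit, 13.14 ± 0.12. For pyruvate use and the TCA cycle, 28 of 30 genes lay above the upper quartile, with a median of 9.71. Mdh2, mitochondrial malate dehydrogenase, read 12.41, 12.42 and 12.43, Mdh1, its cytosolic form, 12.20 ± 0.10, and Fh1, fumarase, 12.13 ± 0.029. The exceptions were Pdk2, a pyruvate dehydrogenase kinase, at 4.55 ± 0.14 and Pck1, a gluconeogenic enzyme, at 3.16 ± 0.18.

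Glycolysis and glucose entry had a median of 8.65 over 27 genes. Aldoa, aldolase, read 12.93 ± 0.17, Pgk1, phosphoglycerate kinase, 12.77 ± 0.25, and Tpi1, triosephosphate isomerase, 12.41 ± 0.37. G6pc, the glucose-6-phosphatase of liver and kidney, was the lowest at 3.00 ± 0.039, while its islet relative G6pc2 was among the 4 highest. Fatty acid oxidation had a median of 8.61 over 17 genes. Hadh, a dehydrogenase that also restrains insulin release, stood 2 units or more above the rest at 12.87 ± 0.14, followed by Hadhb at 10.35 ± 0.058, and Ppargc1a, a coactivator of mitochondrial genes, was the lowest at 4.42 ± 0.012. Lipid synthesis had a median of 8.35 over 16 genes. Acly, which makes cytosolic acetyl-CoA, led at 13.28 ± 0.17, and Scd1, a desaturase, had the widest range, with 7.37, 8.37 and 7.19 on the 3 arrays.

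Beta cells are known to keep a set of widely expressed genes low, the disallowed genes. The 17 measured had a median of 7.09, and 16 exceeded the reference. Ldha, lactate dehydrogenase A, read 9.98, 11.16 and 11.05. Mgst1, a membrane glutathione transferase, read 9.86, 11.12 and 8.86, and Slc16a1, the lactate transporter MCT1, 5.68, 7.15 and 5.89. Array 2 was the highest for 13 of the 17, against 6292 of all 18193 genes. The median deviations of the 17 were -0.21, 0.40 and -0.06 on arrays 1, 2 and 3. Acinar markers had the same array highest, with median deviations of 0.03, 1.10 and -1.03 over 26 genes, and their part in this list was not tested.

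Acinar genes gave high signals in these islets. The 26 measured members had a median of 11.11, above 96.8% of genes and above that of the beta cell markers, and 20 lay above the upper quartile. The order of these 2 lists rested on array 2. Without that array the acinar median was 10.54 and that of the beta cell markers 10.82. Cela3b, an elastase-like protease, read 13.53, 14.19 and 13.09. Ctrb1, chymotrypsinogen, read 13.66, 14.00 and 13.15, and Prss2, a trypsinogen, 13.59, 14.08 and 12.85. Array 2 was the highest and array 3 the lowest for each of these enzymes. The lowest member was Amy1, an amylase, at 4.01, 6.08 and 3.34. Duct genes had a median of 8.65 over 17 members. Clu, also counted among the duct genes, read 13.80, 14.19 and 13.39, the keratins Krt8 and Krt18 read 12.70 ± 0.47 and 12.45 ± 0.38, and Epcam, an epithelial adhesion protein, 11.87 ± 0.11. Cftr, the duct chloride channel, read 3.22 ± 0.43, at the level of olfactory receptors.

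Stellate and mesenchymal genes had a median of 9.13, and 17 of 23 lay above the upper quartile. The collagen genes Col3a1 and Col1a2 read 11.94 ± 0.32 and 11.32 ± 0.29, the filament gene Vim 11.11 ± 0.35 and the matrix gene Sparc 10.82 ± 0.34. Endothelial genes were lower, with a median of 5.75 and 0 of 19 above the upper quartile. Eng, endoglin, read 8.01 ± 0.25, Kdr, a VEGF receptor, 7.80 ± 0.16, and Tie1, a receptor of the same cells, 3.16 ± 0.22. Macrophage genes had a median of 6.66. Ctss, cathepsin S, read 9.39 ± 0.28, Cd14, a lipopolysaccharide coreceptor, 8.94, 10.51 and 8.40, and the lysozymes Lyz1 and Lyz2 8.50 ± 0.19 and 8.28 ± 0.11, 2 genes so alike that their probes may share signal. Cd163, a scavenger receptor, read 2.83 ± 0.26.

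Several cell types left little signal. Of 13 lymphocyte genes, 3 exceeded the reference, the highest being Cd4 at 6.39 ± 0.029 and the lowest Cd3g, a T cell receptor chain, at 2.77 ± 0.038. None of 5 erythroid genes did so, and the haemoglobin gene Hba-a2 read 4.60 ± 0.16. The adipocyte list had a median of 3.26, with Adipoq, adiponectin, at 3.19 ± 0.15 and Fabp4, which macrophages and endothelium also express, at 7.12 ± 0.36. Striated muscle genes (median 4.15), testis genes (4.33) and photoreceptor genes (3.99) also lay below the reference by their medians. Single members of these lists stood higher. Odf2, a sperm tail gene that also serves centrioles, read 8.55 ± 0.030, and Gnat2, a cone transducin, 8.13 ± 0.24.

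Chemokine genes had a lower median than interferon, antigen presentation and immediate early genes. The 32 chemokine genes had a median of 5.50, and 22 exceeded the reference (68.8%, against 66.6% of all genes). Above the upper quartile lay 2, Cxcl1 at 9.27, 9.39 and 7.99 and Ccl28 at 8.75, 8.88 and 8.86. A range of 1 unit or more held for 7 of the 32 (21.9%), against 1.80% of all genes. Cxcl2, a neutrophil attractant like Cxcl1, read 8.85, 6.39 and 5.92, far higher on array 1 than on the others. Interferon and antigen presentation genes had a median of 7.66 and were led by H2-D1 (12.74 ± 0.23), H2-K1 (12.63 ± 0.22) and B2m (12.43 ± 0.12), parts of class I MHC. Some other probe sets of H2-D1 differed far more between arrays, the widest reading 4.89, 7.24 and 9.53. The cause of that spread was not tested. Irf7, an interferon regulator, read 6.27 ± 0.25. Immediate early genes, switched on within minutes of a stimulus, had a median of 8.47. Ier3 read 11.36 ± 0.24, the transcription factor Egr1 11.13, 9.97 and 9.47 and Fos 9.81 ± 0.32, and Fosb was the lowest at 3.54 ± 0.12. Cell cycle genes had a median of 6.03. Ccnd2, a D-type cyclin used by beta cells, led at 12.41 ± 0.13, and Aurkb, a mitotic kinase, was lowest at 3.03 ± 0.24.

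The 3 arrays were close for most genes. The median SD of a gene was 0.117, the median range 0.224 and the 90th percentile of the range 0.506. A range of at most 0.2 held for 7944 genes (43.7%). With genes split by level into 10 bins of equal size, the median SD was smallest in the highest bin, at 0.0938, and largest in bin 4 from the bottom, at 0.137. Pearson correlations across genes, which are not independent replicates, were 0.993 between arrays 1 and 2, 0.996 between 1 and 3 and 0.991 between 2 and 3.

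A range of 1 unit or more was found for 327 genes (1.80%), and 68 of these ranged over 2 units or more. Array 2 was the highest for 262 of the 327 and array 3 the lowest for 215. The order of array 2 over 1 over 3 held for 204 of them (62.4%), against 19.2% of all genes. Between arrays 1 and 3, with array 2 left out, 99 genes differed by 1 unit or more. Between arrays 1 and 2 it was 201, and between 2 and 3 it was 238. Of the 204 genes in this order, 22 were acinar markers, 33 belonged to the acinar, duct or acute phase lists, and 161 were in none of the lists. Of all 18193 genes, 17439 were in none of the lists.

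**Figure D3:**
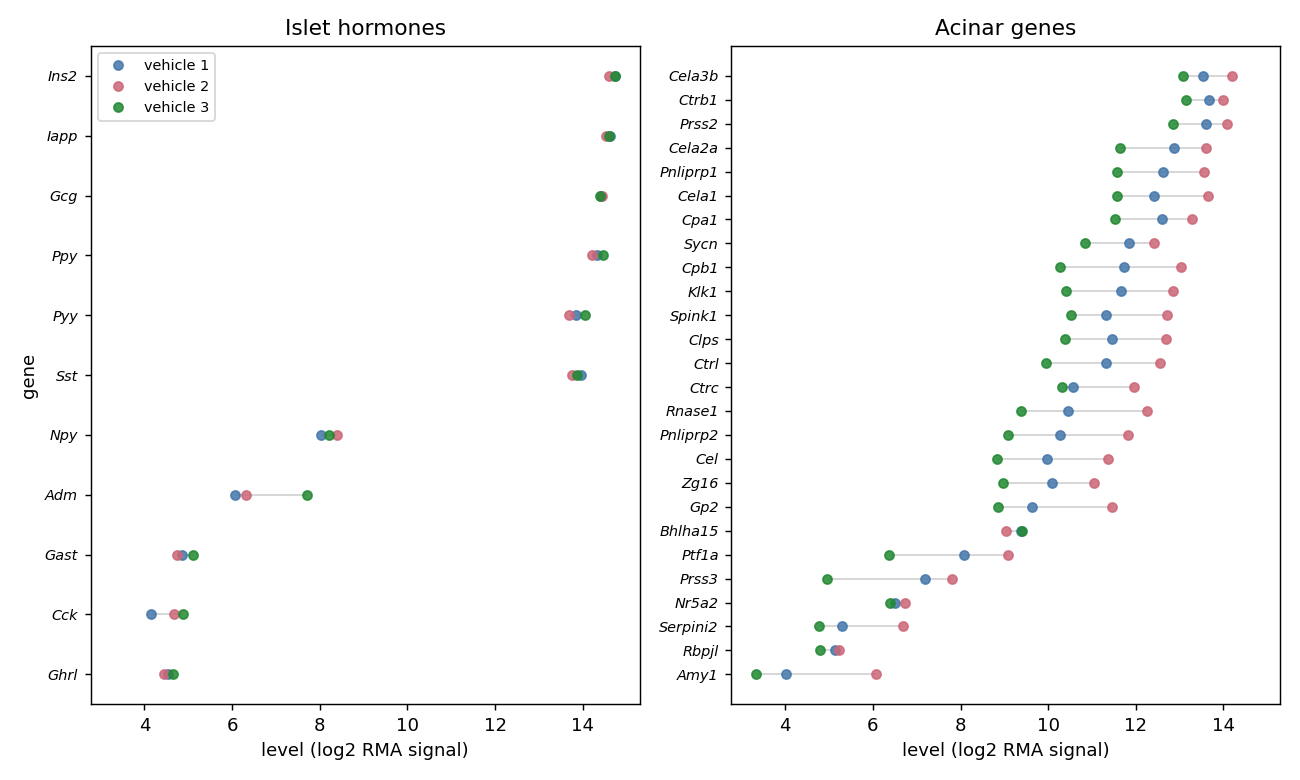
Level (log2 RMA signal) of each islet hormone gene (left) and each acinar gene (right) on vehicle arrays 1 (blue), 2 (red) and 3 (green), with a grey line from the lowest to the highest array. The arrays of the 6 brightest hormones nearly coincide at the top of the scale, where a narrow range does not show steady RNA. By contrast, 25 of 26 acinar genes lie highest on array 2 and lowest on array 3.

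Of the 45 lists, the acinar genes had the largest median range between arrays, 2.08 against 1.42 for the acute phase and Reg list that came next. Of the 26 genes, 22 had a range of 1 unit or more, against 1.80% of all genes, and 14 a range of 2 or more. In the order of array 2 over 1 over 3 stood 25 of them, against 19.2% of all genes. The median deviation from the gene's own mean was 0.03 on array 1, 1.10 on array 2 and -1.03 on array 3. Cpb1, carboxypeptidase B, read 11.74, 13.02 and 10.27. Rnase1, the pancreatic ribonuclease, read 10.46, 12.26 and 9.38. The member outside the common order was Bhlha15, a transcription factor of secretory cells, which read 9.39, 9.03 and 9.41 and had a range of 0.37. The corresponding deviations of the beta cell markers were 0.15, -0.13 and 0.01. On array 3, where the list stood lowest, 22 of the 26 genes still read above the olfactory receptor reference, as did 25 on array 1 and 26 on array 2.

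Most genes of the duct list and of the acute phase and Reg list followed the same order, and the part of acinar cells in this was not tested. Of 17 duct genes, 13 stood in the order of array 2 over 1 over 3, against 19.2% of all genes. The median deviations of the duct list were -0.06, 0.41 and -0.39. Car2, carbonic anhydrase 2, read 6.86, 8.14 and 5.60. Of 14 acute phase and Reg genes, 9 stood in that order. Reg3a, a secreted lectin of stressed acinar cells, read 8.61, 10.98 and 7.39, and Reg3g read 10.60, 12.65 and 9.60. Reg2 read 13.31, 13.86 and 12.24, and Reg3b, the highest of the list, 13.31 ± 0.33. Reg4 read 3.53 ± 0.067, below the reference on each array.

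Among genes above the median level, the 15 with the largest range were led by Hpx, Reg3a and Hsd17b13. Array 2 was the highest for 12 of these 15 and array 1 for 3. Cckar, the cholecystokinin receptor of acinar cells, read 8.07, 9.89 and 6.81, and Dmbt1, a secreted scavenger protein of epithelia, 10.55, 12.38 and 9.27. Pdia2, the pancreatic disulfide isomerase, read 7.24, 9.05 and 6.10, and Erp27, another protein of the endoplasmic reticulum, 6.61, 8.25 and 5.31. Cuzd1, a zymogen granule protein, read 7.63, 9.91 and 7.04. Anxa13, an annexin of epithelia, read 6.45, 8.19 and 5.10, Klk1b5, a kallikrein, 6.84, 8.01 and 4.90, Ptger3, a prostaglandin receptor, 7.16, 9.54 and 6.59, and Hsd17b13, a lipid droplet enzyme, 6.35, 8.60 and 5.47.

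**Figure D4:**
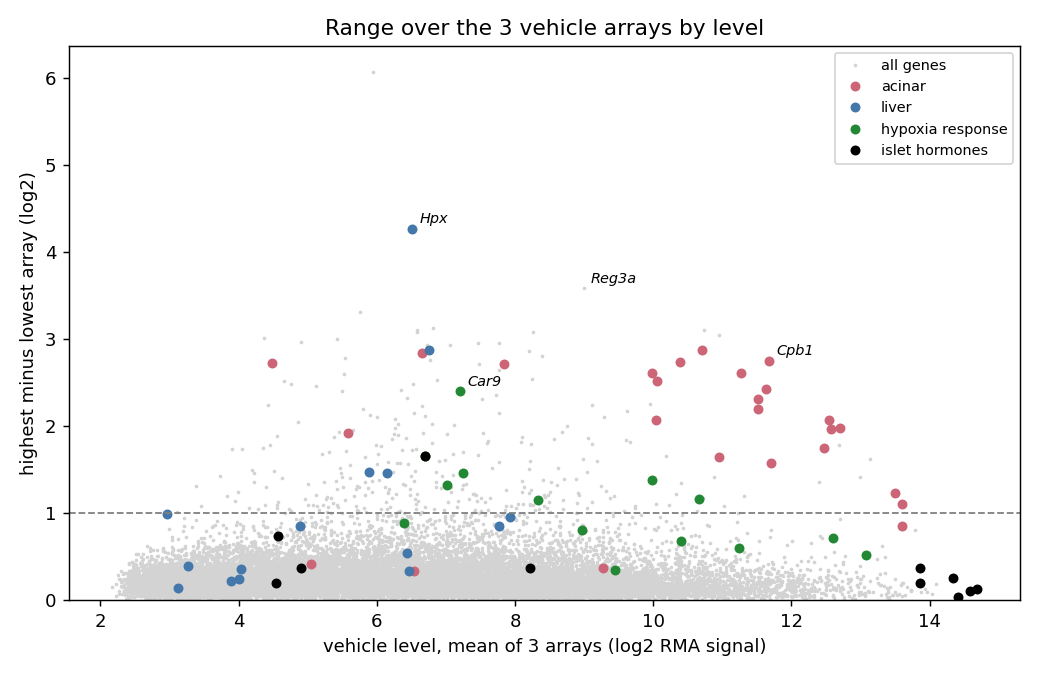
Range over the 3 vehicle arrays (highest minus lowest, log2) against the mean level (log2 RMA signal) of 18193 genes in grey, with 4 lists in colour and a dashed line at 1 unit. Most acinar genes lie above the line at high levels, the 6 brightest hormones lie far below it, and Hpx has a range of 4.27.

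Most plasma protein genes of the liver type went another way. The 15 measured had a median of 5.89, and none lay above the upper quartile. Array 1 was the highest for 10 of them, against 5780 of all 18193 genes, and array 3 for 4. Hpx, hemopexin, which binds haem, read 8.86, 4.59 and 6.08, and Alb, albumin, 8.49, 5.62 and 6.17. Fgg and Fgb, chains of fibrinogen, read 7.91, 7.46 and 8.42 and 7.34, 7.79 and 8.19. The 4 members with a range of 1 unit or more, Hpx, Alb, Apoc1 and Apoa2, were each highest on array 1 and lowest on array 2. Serpina1c, an alpha-1 antitrypsin gene with near-identical paralogs, was in none of the lists and read 8.86, 2.79 and 6.20, the widest range of all genes. Saa1, a serum amyloid gene, read 7.20, 3.89 and 6.19. Cyp3a11, a cytochrome P450 of hepatocytes, was the lowest of the list at 2.96 ± 0.53.

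Genes induced by low oxygen followed another order, lowest on array 1 for 12 of 14 and highest on array 3 for 12 of 14. Their median was 9.21, and the median deviations were -0.46, 0.01 and 0.39. Of all 18193 genes, 5140 were lowest on array 1 and 6121 highest on array 3. Slc2a1, the glucose transporter GLUT1, read 10.02, 10.80 and 11.18. Bnip3, a mitophagy receptor, read 12.28, 12.52 and 13.00, Ndrg1 10.99, 11.14 and 11.59, and Mif, a cytokine, 12.81, 13.09 and 13.33. Car9, carbonic anhydrase 9, departed from that order with 6.25, 8.65 and 6.72, highest on array 2. Glycolysis genes shifted less in the same direction, with median deviations of -0.14, -0.04 and 0.14.

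Stellate and mesenchymal genes also stood highest on array 3, in 20 of 23 members, with median deviations of -0.21, -0.12 and 0.33. Tagln, a smooth muscle protein, read 7.79, 7.98 and 8.89. Endothelial genes were lowest on array 1 in 15 of 19, against 5140 of all 18193 genes. None of the 19 ranged over 1 unit, which 1.80% of all genes did, and their median range was 0.38 against 0.22 for all genes. Over all genes, array 1 was the highest for 5780, array 2 for 6292 and array 3 for 6121. Array 1 was the lowest for 5140, array 2 for 7280 and array 3 for 5773. The median deviations over all genes were 0.0028, -0.0105 and 0.0031 on arrays 1, 2 and 3. These shifts of lists are therefore relative to arrays whose values have nearly 1 distribution.

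**Figure D5:**
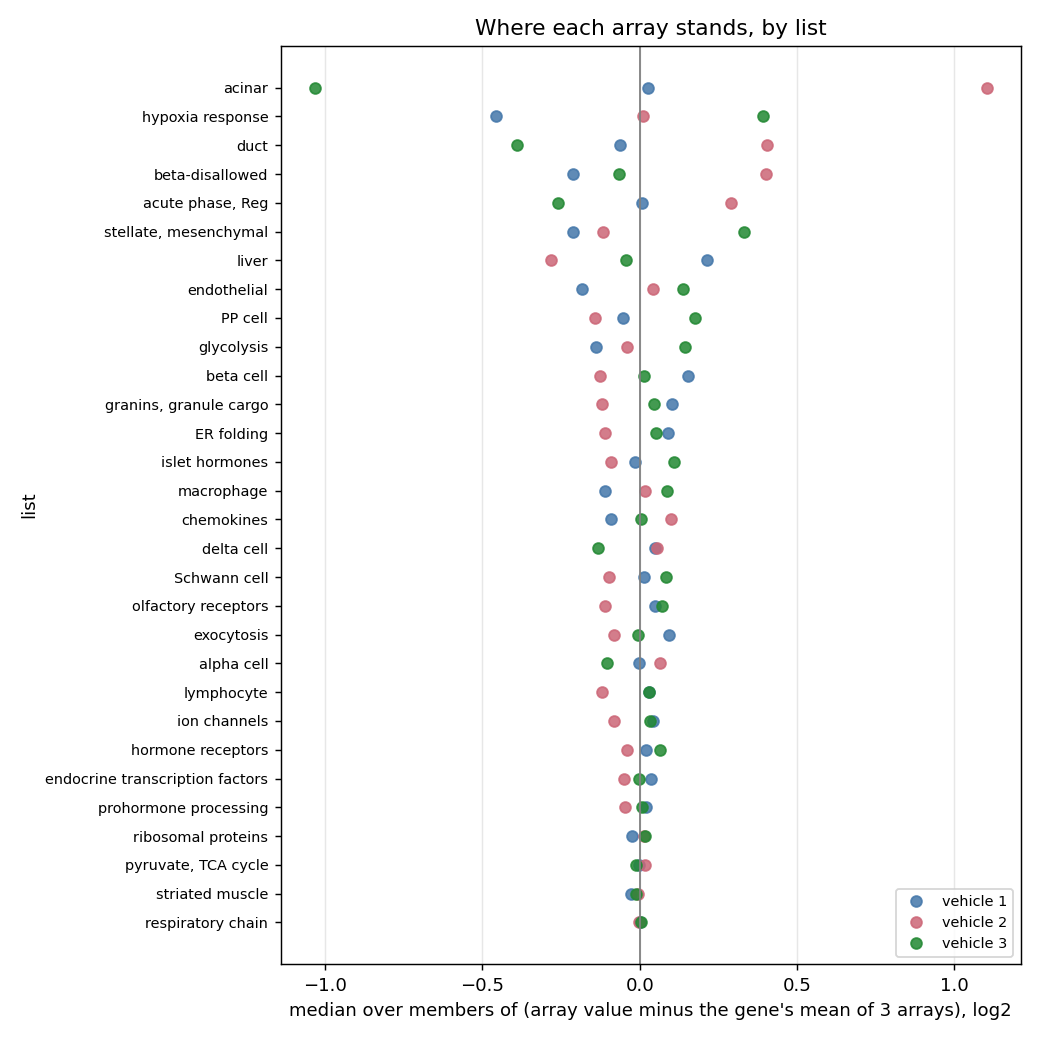
Median over the members of each of 30 lists of the array value minus the gene's mean of 3 arrays (log2), for vehicle arrays 1 (blue), 2 (red) and 3 (green). Acinar genes run from -1.03 on array 3 to 1.10 on array 2, hypoxia genes from -0.46 on array 1 to 0.39 on array 3, and respiratory chain genes lie close to 0 on each array.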

How the data were processed

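Signals were read from 6 samples on an Affymetrix mouse array, of which the 3 vehicle samples are described. The deposited table holds log2 values that the authors computed by RMA. Per the submitters' processing notes, the software was Affymetrix Expression Console 1.1. Its settings and any genome build were not given in the sources used here. RMA sets the probe values of all arrays to 1 distribution, so total signal cannot be compared between them. The gene levels built from those probes have nearly, but not exactly, 1 distribution. The number of arrays limits the precision.

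Of 45101 probe sets, 64 controls were left out, 34945 were listed with 1 gene, 932 with several and 9160 with none. Of the single-gene ones, 34741 were matched by Entrez ID to the RefSeq genes of GRCm38.p6, with 0 symbols changed, and 204 kept the platform's symbol. The probe set of highest mean over the 6 arrays stood for each gene. No dim gene was removed, and no test was run because 1 group is described. No value column lacked a sample. The members and the 45 gene lists (820 genes, 754 measured) were chosen with earlier results of these data known.

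The rule for named genes took the 20 highest genes, all hormones and sex-linked genes, the 4 highest, the lowest and the widest-ranging member of each list, and the 15 genes of largest range above the median level, 254 genes in all. Apoa2, Apoc1, Bhlha15, Cela1, Cpb1, Kcnj11, Nkx2-2, Pdk2, Pdx1, Saa1, Serpina1c, Slc2a2 and Sstr2 were chosen after their values were seen. Alternatives were the mean of a gene's probe sets, probe sets chosen on the vehicle arrays, probe sets without the classes that can bind related genes, another centring or normalization, level filters and leaving out each array. Summaries were computed in Python 3.11.15 with pandas 2.3.3 and numpy 2.4.6 and tested on simulated data.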

Additional observations from a re-analysis of the deposited data

How the results depend on the processing

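No paired analysis was possible because the results describe 1 group and come from no test. The count of 327 genes with a range of 1 unit or more became 195 when genes below the median level were left out. Leaving out 1 array gave counts between 99 (without array 2) and 238 (without array 1), and 201 without array 3. Fewer arrays make a smaller range, and the count also depended on which array was left out. The median SD of 0.117 became 0.102 with the mean of a gene's probe sets and lay between 0.0781 (without array 2) and 0.108 when 1 array was left out. The count of genes above the olfactory receptor reference lay between 10762 and 12217 over the alternatives, against 12110. Shifts of 2 lists that lay near 0 changed sign. The shift of array 2 for the TCA cycle list became -0.0021 with a further quantile normalization. That of array 1 for the respiratory chain list became 0.0097 with median centring and 0.0039 with the further quantile normalization. The choice of probe set moved levels most. With the mean of probe sets, 59 of the 100 highest genes were shared with those above, and 77 of 254 named genes moved by over 10 percentile points. Without the probe set classes that can bind related genes, 75 were shared and 12 of 247 named genes moved that far, and Rpl41 read 3.97. That setting leaves out Ins2, and the medians of hormones, ribosomal proteins and granins became 11.04, 12.43 and 13.28. The hormone median then lay midway between Sst (13.86) and Npy (8.21), with no hormone gene near it. The cause of the other shifts was not tested.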

Other observations

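Probe sets that the platform annotation lists with no gene numbered 9160 and lay low, with a median of 3.71, but 18.3% exceeded the olfactory receptor reference. Of the 100 highest probe sets, 61 belonged to a single gene, 31 to several and 8 had no gene listed. The highest probe set without a gene read 14.71, 14.58 and 14.69 on the 3 arrays, between Ins2 and Gcg. Among unnamed probe sets 48 (0.524%) had a range of 1 unit or more, against 1.80% of genes. Some of the brightest signal of these islets therefore belongs to probe sets that the gene levels leave out.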
